A study of Mus musculus with 4 samples.

Results

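The transcription factor Nrf2 is held in check and assisted by a small circuit of proteins, and 5 genes of that circuit were examined in Nrf2 chromatin immunoprecipitation followed by sequencing (ChIP-seq) of mouse esophagus. They are Nfe2l2, which encodes Nrf2 itself, Keap1, Mafg, Maff and Bach1. The deposited table has 1 row for each of 1940 genes with a called interval in or near them. The members were chosen by name from its rows, so that all 5 have a row follows from the choice. The ChIP libraries came from esophagus of Keap1KO, wild-type and Nrf2KO mice, all labelled C57BL/6, with 1 library per genotype and the same Nrf2 antibody in each. A pooled input library makes up the 4 samples and was not used here, since none of the columns analysed is its own. The labels give each knockout by name only. The alleles, the cells in which Keap1 was removed, the age and the number of animals are not stated there. Heights at the start of Nfe2l2 or Keap1 do not check either deletion, and a binding table cannot be set against marker genes of the tissue. Whether a deletion altered the heights read at Nfe2l2 in Nrf2KO or at Keap1 in Keap1KO was not tested.

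Keap1 is the adaptor through which a cullin-based ubiquitin ligase marks Nrf2 for degradation, and electrophiles that modify Keap1 let Nrf2 accumulate. Nrf2 then pairs with a small Maf protein such as MafG or MafF and binds antioxidant response elements, while Bach1, a repressor, pairs with the same small Mafs and competes for the same elements. In mice, loss of Keap1 thickens the keratinised layer of the esophagus in a way that depends on Nrf2.

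Where the signal sat was read from the interval positions and RefSeq promoter sequence (GRCm38.p6, the assembly that mm10, the build in the submitters' processing notes, also represents). Of the 7 RefSeq promoter windows of the members, each from 250 bases before to 50 after a gene start, 2 hold a Keap1KO interval position. They are shown because signal was called inside them, with the 21 bases centred on the listed position in capitals. The Keap1 window is chr9:21239283-21239582 on the minus strand and the Maff window is chr15:79347270-79347569 on the plus strand.
Keap1: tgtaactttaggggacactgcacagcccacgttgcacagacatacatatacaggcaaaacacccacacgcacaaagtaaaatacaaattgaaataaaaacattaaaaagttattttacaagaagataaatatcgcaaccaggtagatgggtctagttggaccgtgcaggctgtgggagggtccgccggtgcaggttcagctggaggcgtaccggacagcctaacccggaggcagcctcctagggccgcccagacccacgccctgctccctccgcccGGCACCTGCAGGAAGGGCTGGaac
Maff: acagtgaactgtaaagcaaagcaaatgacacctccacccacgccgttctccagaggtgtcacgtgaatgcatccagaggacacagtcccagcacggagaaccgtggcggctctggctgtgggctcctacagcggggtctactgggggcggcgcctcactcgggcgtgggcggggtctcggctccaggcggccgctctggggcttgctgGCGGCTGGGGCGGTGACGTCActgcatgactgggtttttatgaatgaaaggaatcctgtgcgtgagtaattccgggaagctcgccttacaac

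Neither window holds TGACNNNGC, the core of the antioxidant response element, on either strand. The Keap1 position is base 287 of the 300 in its window. Sequence beyond the window's end, further into the gene, was therefore not searched. The TGACNNNGC core was found in 12.4% of all 32851 RefSeq windows and in 65 of the 163 windows with a Keap1KO interval position in them (39.9%). The capitals in the Maff window end in TGACGTCA, the element bound by CREB and ATF factors, which was searched for only after the sequence had been seen. TGACGTCA lies 3 bases from the listed interval position. Most listed positions are multiples of 16 bp, so this distance is not exact to the base. The element was found in 1.79% of all windows and in 4 of the 163 with a Keap1KO interval position (2.45%). It reads the same on both strands and does not overlap a TGACNNNGC match in this window.

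TGACNNNGC was found in 3 other member windows, none of which contains an interval position. The matches, in capitals with 10 bases on each side, are shown to place them against the called intervals.
Nfe2l2, chr2:75704885-75704913, minus strand: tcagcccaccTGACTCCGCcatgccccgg
Mafg, chr11:120633751-120633779, plus strand, opposite to the gene: ctcgccgggtTGACCGTGCtcctgcagag
Maff, chr15:79346499-79346527, plus strand, upstream of another annotated start: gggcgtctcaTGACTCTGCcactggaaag
The match at Nfe2l2 is 815 bp from the nearest called position, that at Mafg 929 bp and that at Maff 971 bp. The single Bach1 window had no match. The windows cover only the gene starts, so the sequence under the intervals of Nfe2l2, Mafg and Bach1 was not read. Nor was that under the Keap1 intervals at 21238848 and 21238464, which lie outside the printed window. Of the sequence around the Keap1 position at 21239296, only the part inside that window was read. With an A required after this core, 0 member windows and 3.04% of all windows had a match.

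The 5 genes held 10 active regions, the authors' merged intervals, built from 11 called intervals. Keap1KO accounted for 10 of those intervals and wild-type for 1, and none came from Nrf2KO. All rows together listed 1671 intervals of Keap1KO and 56 of wild-type. All 5 members had a Keap1KO interval, as had 99.1% of the 1940 rows. The wild-type interval was at Nfe2l2, and 4.18% of rows had one. An interval within 1 kb of the gene start was listed for 4 of the 5 members, the exception being Bach1, and for 26.9% of rows. Mafg, Keap1 and Bach1 had 2 or more regions, a feature of 13.4% of rows, and Mafg and Keap1 had 3, a number reached by 3.14% of rows.

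**Figure D1:**
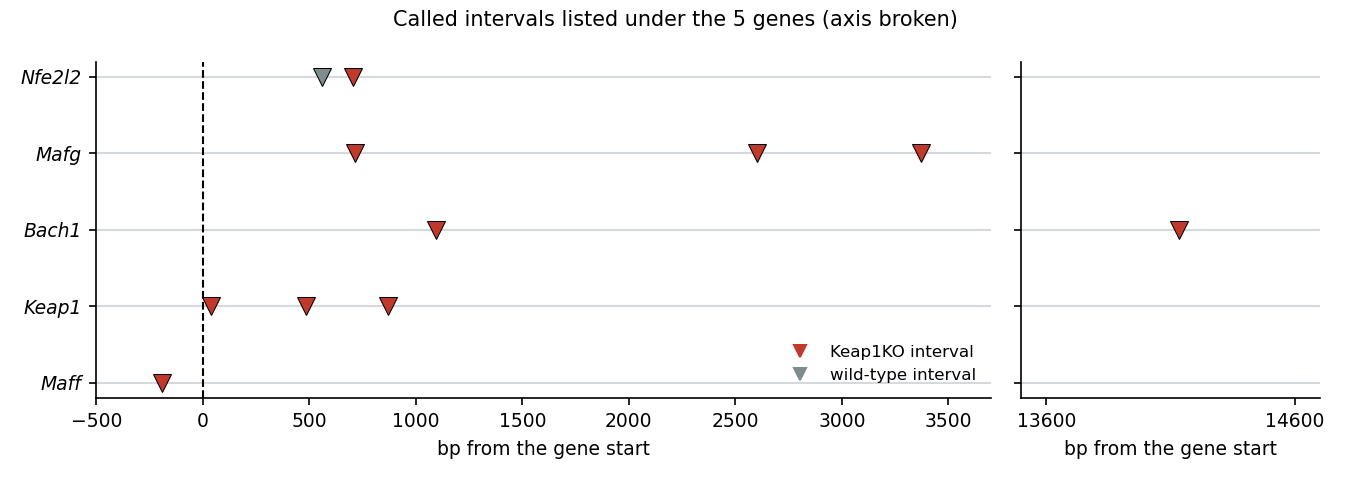
Each triangle is a called interval listed under a gene, placed by its distance in bp from the gene start (dashed line), red for Keap1KO and grey for wild-type. Of the 11 intervals 10 were called in Keap1KO, and the wild-type interval is at Nfe2l2, where it lies 144 bp from the Keap1KO interval.

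Nfe2l2, the gene of the activator, had the tallest signal of the 5 in Keap1KO and in wild-type. Its heights were 78 in Keap1KO esophagus, 17 in wild-type and 7 in Nrf2KO. Height here is the authors' average peak height per gene, whose unit is not stated. Keap1KO thus stood above wild-type and wild-type above Nrf2KO, an order that 51.1% of all rows shared. In Keap1KO 25 rows of the table were taller and in wild-type 22 were, whereas the Nrf2KO height was exceeded by 451 rows.

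The gene lies on chromosome 2 (GeneID 18024, minus strand, mm10). The Keap1KO interval was at position 75703936, 705 bp into the gene, and the wild-type interval at 75704080, 561 bp into it. The table merges both into 1 active region. The interval pair is also listed under E030042O20Rik, whose row carries the same values and is not a separate measurement. At Nfe2l2 the ratio was 4.39-fold for Keap1KO over wild-type (log2 2.13), 9.88-fold for Keap1KO over Nrf2KO (log2 3.30) and 2.25-fold for wild-type over Nrf2KO (log2 1.17), each with 1 added to the heights. Its wild-type over Nrf2KO ratio was above that of 87.9% of rows, and its Keap1KO over wild-type ratio was above that of 73.5%. Few rows have a wild-type interval, as Nfe2l2 does. Among the 64 rows with both a wild-type and a Keap1KO interval, the median log2 ratio of wild-type over Nrf2KO was 1.07. Of those rows, 36 were at least 2-fold higher in wild-type, so Nfe2l2 was close to their median.

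Mafg encodes a small Maf protein, a short leucine zipper factor without an activation domain of its own. Its mean heights over 3 regions were 43.7 in Keap1KO esophagus, 8.67 in wild-type and 6 in Nrf2KO. The libraries followed the same order as at Nfe2l2, with a narrower gap between wild-type and Nrf2KO. Of the table's rows, 103 were taller in Keap1KO.

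The regions of Mafg were unequal. The tallest reached 63 in Keap1KO, and the other 2 together came to 68, a mean of 34. The deposited table does not say which of the intervals, on chromosome 11 (GeneID 17134) at 120632832, 120630944 and 120630176, is the tall one. They lie 715, 2603 and 3371 bp into the gene. RefSeq places one end of Mafg 1408 bp further upstream than the deposited table does, so distances would differ for another transcript. All 3 are also listed under Sirt7 and Pycr1 with the same values. At Mafg the ratio was 4.62-fold for Keap1KO over wild-type (log2 2.21), 6.38-fold for Keap1KO over Nrf2KO (log2 2.67) and 1.38-fold for wild-type over Nrf2KO (log2 0.47).

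Maff encodes a second small Maf protein, and its pattern differed from that of Mafg. Its heights were 26 in Keap1KO esophagus, 11 in wild-type and 17 in Nrf2KO. The library without Nrf2 thus stood above wild-type, and no row of the 1940 had a greater height in Nrf2KO. The next highest rows in Nrf2KO had 15.

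The single Maff interval lay on chromosome 15 (GeneID 17133) at 79347488, 190 bp upstream of the start in the deposited table and 32 bp upstream of the RefSeq start in the printed window. It is listed under no other gene. At Maff the ratio was 2.25-fold for Keap1KO over wild-type (log2 1.17) and 1.5-fold for Keap1KO over Nrf2KO (log2 0.58). Both turned negative, at −0.44 and −1.18, once the libraries were scaled to the same median height. Such scaling removes a shift shared by most rows by construction, so these signs only place Maff against the rest of the table. For wild-type over Nrf2KO the log2 ratio was −0.58, and 15.1% of rows lay lower.

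Bach1, the repressor, had high signal in all 3 libraries. Its mean heights over 2 regions were 35 in Keap1KO esophagus, 10.5 in wild-type and 10 in Nrf2KO. Wild-type and Nrf2KO were nearly level, and each stood above about the same share of the table, with 91.4% of rows lower in wild-type and 89.4% lower in Nrf2KO.

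The 2 Bach1 regions were alike in Keap1KO, where one reached 37 and the other 33, although they lie 13040 bp apart. Their intervals, on chromosome 16 (GeneID 12013), are at 87700048, 1094 bp into the gene, and at 87713088, 14134 bp into it. They are listed under no other gene. At Bach1 the log2 ratio of Keap1KO over wild-type was 1.65 (3.13-fold), and 0.03 after scaling to the same median. For Keap1KO over Nrf2KO it was 1.71 (3.27-fold), and −0.04 after scaling. For wild-type over Nrf2KO it was 0.06 (1.05-fold), and −0.06 after scaling.

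Keap1, the gene of the inhibitor, had the lowest heights of the 5 in Keap1KO and in wild-type. Its mean heights over 3 regions were 19.3 in Keap1KO esophagus, 6.33 in wild-type and 7.67 in Nrf2KO. As at Maff, wild-type lay below Nrf2KO, an order shown by 36.8% of all rows. In Keap1KO the tallest region reached 23, and the other 2 had a mean of 17.5.

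The 3 Keap1 intervals were packed into the first kb of the gene, on chromosome 9 (GeneID 50868) at 21239296, 21238848 and 21238464, which are 36, 484 and 868 bp from the start. All 3 were called in Keap1KO, and none was called in wild-type or Nrf2KO. The same regions are listed under Gm16754 and S1pr5. S1pr5 has 1 further region, 9317 bp upstream of its own start, which by subtraction had heights of 20 (Keap1KO), 3 (wild-type) and 4 (Nrf2KO). That region was about as tall in Keap1KO as those at Keap1 and lower in the other two libraries. At Keap1 the log2 ratio of Keap1KO over wild-type was 1.47 (2.77-fold) and that of Keap1KO over Nrf2KO was 1.23 (2.34-fold), and both turned negative after scaling, at −0.09 and −0.48. For wild-type over Nrf2KO it was −0.24.

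**Figure D2:**
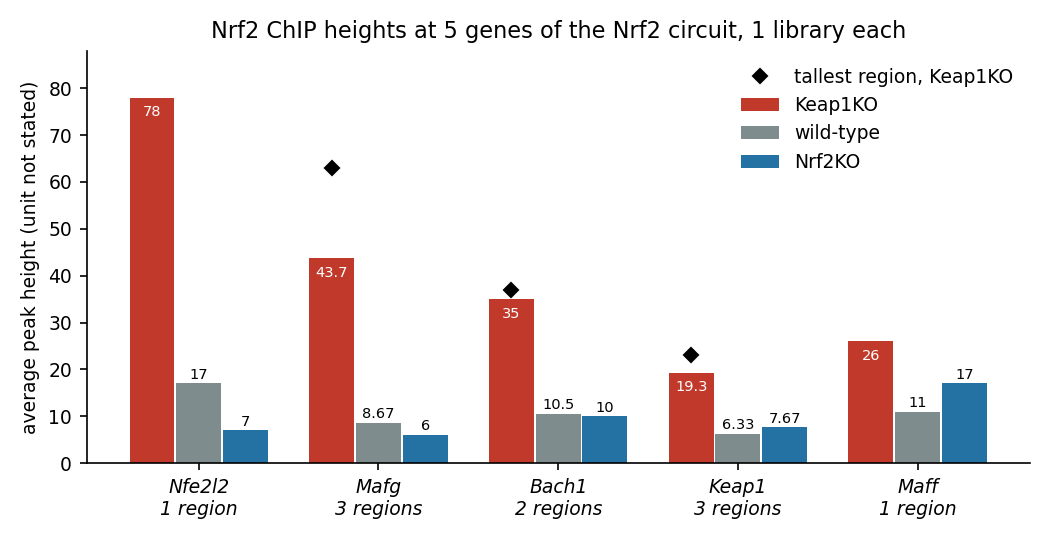
Bars give the deposited average peak height of each gene in the Keap1KO, wild-type and Nrf2KO library (1 library each, no error bars), and diamonds the tallest region of genes with several, in Keap1KO. Nfe2l2 runs 78, 17 and 7, while at Maff the Nrf2KO bar, at 17, is above the wild-type bar, at 11.

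The members were set against the whole table. For Keap1KO over wild-type all 5 were at least 2-fold higher (0 after scaling to the same median), which was also true of 86.4% of rows. Their median log2 ratio was 1.65, against 1.70 over all rows. For Keap1KO over Nrf2KO 4 of 5 were at least 2-fold higher (1 after scaling), against 83.3% of rows, with medians of 1.71 and 1.83. For wild-type over Nrf2KO only Nfe2l2 was (none with a pseudocount of 5), against 17.5% of rows, with medians of 0.06 and 0.15. These shares are near the background. The comparisons share libraries and are not independent of each other. Nearly every row was listed because of a call in Keap1KO, and depth is unknown. In bulk tissue, more cells with bound Nrf2 and more binding per cell cannot be told apart.

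Scaling each library to the same median height lowered the median log2 ratio of all rows for Keap1KO over wild-type to 0.14, and that for Keap1KO over Nrf2KO to 0.19. This fall is built into the scaling, which removes a shift shared by most rows. Relative to the rest of the table, Nfe2l2 and Mafg then remained higher in Keap1KO, with log2 ratios over wild-type of 0.47 and 0.59 and over Nrf2KO of 1.56 and 0.96. For Keap1KO over Nrf2KO the unscaled ratios ran in the order Nfe2l2, Mafg, Bach1, Keap1 and Maff. With 1 library per genotype, whether neighbours in this order differ beyond the spread between animals cannot be said.

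**Figure D3:**
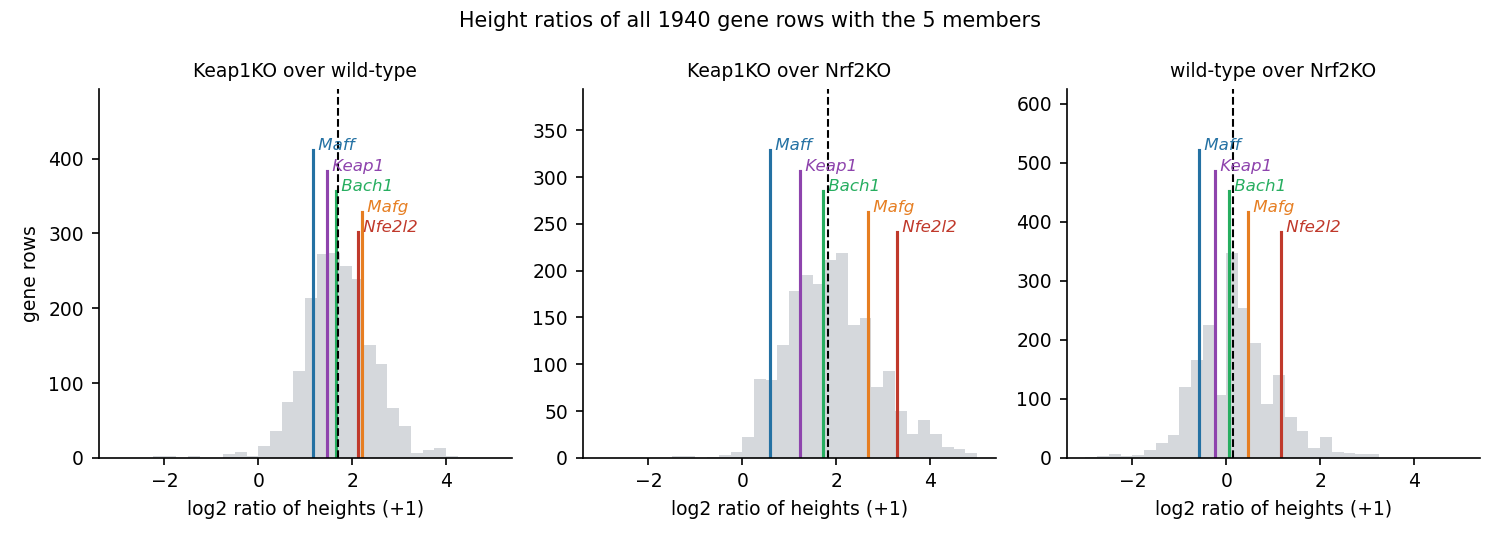
Grey histograms count the 1940 gene rows by log2 ratio of heights with 1 added, the dashed line marks their median, and coloured lines mark the 5 members. For Keap1KO over Nrf2KO Nfe2l2 lies at 3.30 and Maff at 0.58, on either side of the median of 1.83, and with libraries scaled to the same median Bach1, Keap1 and Maff fall below 0 there.

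Most members lay near a gene start, and rows with an interval within 1 kb of their start had a median Nrf2KO height of 7, against 4 in the other rows. What part this has in the members' ranks was not tested. Among the 522 rows near a start, the Nrf2KO height of Maff was still the greatest, that of Keap1 was above 56.9% of them and that of Nfe2l2 above 44.4%. The median log2 ratio of Keap1KO over Nrf2KO in these rows was 1.30, so that Keap1 (1.23) was close to it, with 46.2% of the 522 rows lower. Mafg exceeded 91.4% of them in that ratio and Nfe2l2 exceeded 96.0%. For wild-type over Nrf2KO their median was 0.00, and Nfe2l2 stood above 94.1%. Of the 522 rows, 35 had a wild-type interval, as Nfe2l2 did.

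**Figure D4:**
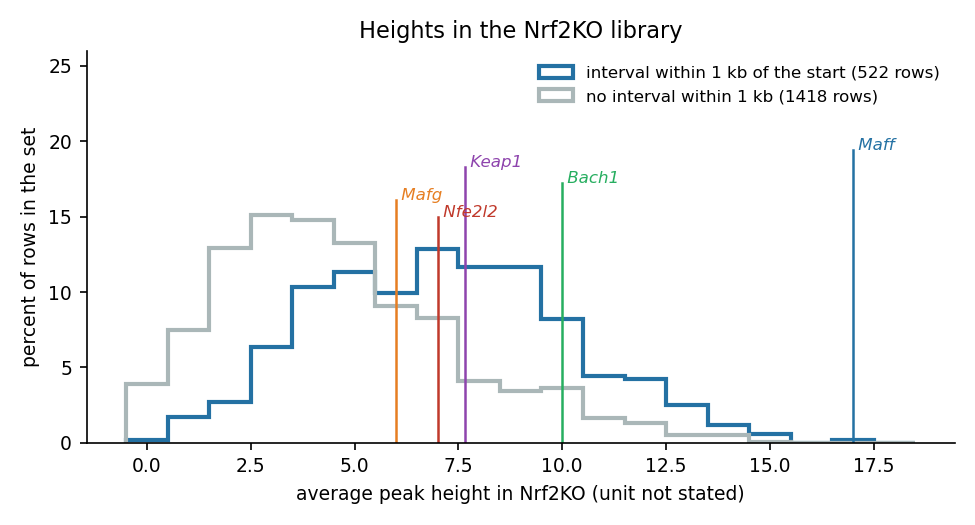
Outlines give the percentage of rows at each Nrf2KO height for the 522 rows with an interval within 1 kb of the gene start (blue) and the 1418 others (grey), and vertical lines mark the members. Maff, at 17, lies at the far right of both outlines, and the other members lie between 6 and 10.

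Rows with a Keap1KO interval position inside a promoter window were also divided by the antioxidant response element core. The 53 rows with TGACNNNGC had a median log2 ratio of Keap1KO over Nrf2KO of 1.44, and 39 were at least 2-fold higher (73.6%). The 84 rows without it in such a window, among them Keap1 and Maff, had a median of 1.04, and 46 were at least 2-fold higher (54.8%). Over all 1940 rows the median was 1.83 and 83.3% were at least 2-fold higher, above both sets. In the 522 rows near a start the median was 1.30, with 345 at least 2-fold higher. Heights average all regions of a gene, also those outside the window, so the split does not measure the promoter interval alone. For Keap1KO over wild-type the medians were 1.44 with the core and 1.36 without it, and for wild-type over Nrf2KO they were 0.00 and −0.19. The median Nrf2KO height was 7.5 in both sets.

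Other genes of the circuit were looked up by name. No row in the table used here was found for 8 further relatives of Nrf2, Bach1 and the Mafs, namely Nfe2, Nfe2l1, Nfe2l3, Bach2, Mafk, Maf, Mafa and Nrl. Nor was one found for 11 genes of Nrf2 turnover and Keap1 partners. These were Cul3, Rbx1, Btrc and Fbxw11, which encode ubiquitin ligase subunits, Cand1, a regulator of cullins, the autophagy adaptor gene Sqstm1, the kinase genes Gsk3b and Ikbkb, and Dpp3, Palb2 and Pgam5. No height can be given for them, and the lists do not cover every gene of the circuit.

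A list of 15 classical Nrf2 targets, mostly enzymes, with the ferritin chains, the cystine transporter gene Slc7a11 and the growth regulator gene Osgin1 among them, gives a scale for the members, and all 15 had a row. Their Keap1KO heights ran from 21 (Fth1, ferritin heavy chain) to 194 (Txn1, thioredoxin), with a median of 56.5. Their median in wild-type was 12 and in Nrf2KO 5. The 2-fold rule was met by all 15 for Keap1KO over Nrf2KO, against 83.3% of all rows. It was met by 14 for Keap1KO over wild-type (86.4% of rows) and by 9 for wild-type over Nrf2KO (17.5%). Of the 15, 6 were taller in Keap1KO than Nfe2l2, 8 were taller than Mafg, 10 than Bach1, 14 than Maff and all 15 than Keap1. Heights are means over regions, and 7 of the 15 have 2 or more, so these ranks depend on the number of regions averaged. All 15 exceeded Keap1 and Maff in the ratio of Keap1KO over Nrf2KO, 14 exceeded Bach1, 13 exceeded Mafg and 9 exceeded Nfe2l2. In Nrf2KO, by contrast, none of the 15 was taller than Bach1 or Maff, and their greatest height there was 10. These genes were listed with earlier results in view, so the comparison only places the members.

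**Figure D5:**
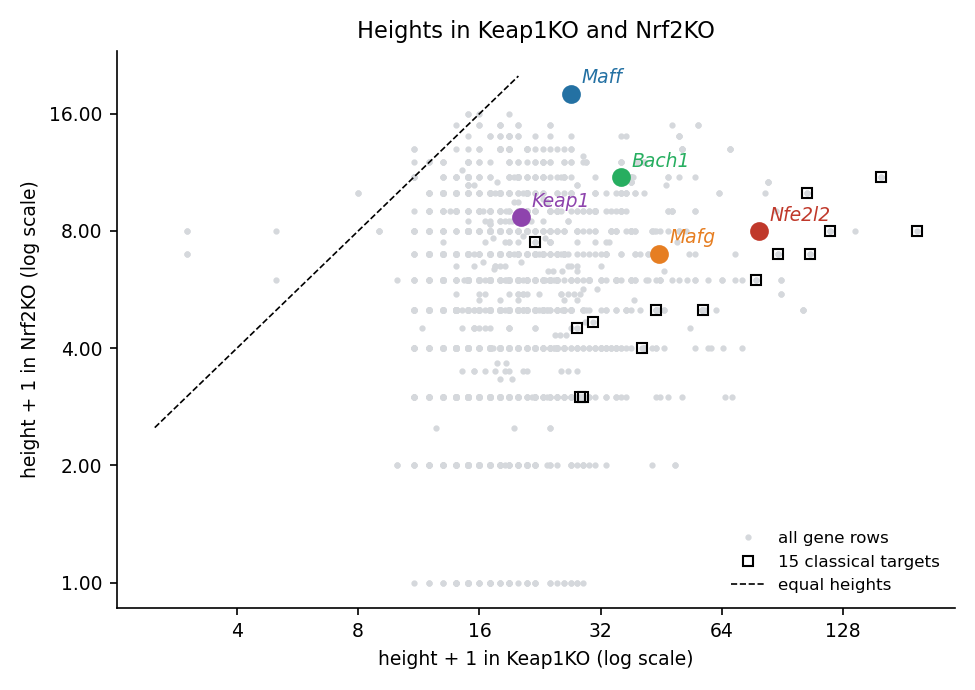
Each point is a gene row, with the Keap1KO height plus 1 on the horizontal and the Nrf2KO height plus 1 on the vertical axis (both log scales), squares for the 15 classical targets and coloured points for the members. Nfe2l2 and Mafg lie towards the squares, and Maff, with 26 in Keap1KO and 17 in Nrf2KO, lies highest.

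The rows most like each member were found by the distance between log2 heights, with 1 added, over the 3 libraries. For Nfe2l2 they were Snx29 (68 in Keap1KO esophagus, 18 in wild-type and 6 in Nrf2KO) and Cbr3, a carbonyl reductase (81, 20 and 9 in the same libraries). Mafg was closest to Ankrd11 (48.5, 8.5 and 6.5) and Eno1, an enolase of glycolysis (39, 8 and 6). Bach1 was closest to Alg2 and Sec61b, which share 1 interval and so 1 set of heights (36, 10 and 10). Keap1 was closest to Epas1, a hypoxia-inducible factor gene (19, 6 and 8), and to Bag3, a co-chaperone (18.2, 6.75 and 7.5). Maff had the least similar neighbours, Abl1 (23, 11 and 12) and Pelp1 (21, 9 and 13), at distances of 0.50 and 0.54, against 0.08 for the nearest rows to Bach1. With 3 libraries as the only points, such likeness describes these heights alone.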

How the data were processed

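Nrf2 ChIP-seq of mouse esophagus was deposited as 1 table of gene rows. The submitters' processing notes name BWA, MACS2 2.1.0 and mm10. No source used here states parameters, depth or how libraries were scaled, so no counting interval is given. Per the file headers, the authors' values are an average peak height (a signal) per gene and library, a flag for a called interval, the height of the tallest region, and interval distances from the gene start. The signal was deposited without a stated unit.

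Rows were found by gene name. Positions were computed from gene start, strand and distance, and every interval had a single position. Of 1727 positions, 1649 were multiples of 16 bp, so they are not exact to the base. Region sums are the mean times the number of regions. Ratios are log2 of heights with a pseudocount of 1, and 2-fold describes size only. With 1 library per genotype there was no test. Ranks and medians were taken over 1940 gene rows, some of which share intervals. Of these, 1878 matched RefSeq (GRCm38.p6) by identifier, with all 5 members. Promoter windows, which do not cover distal intervals, are RefSeq's. One gene of the lists is not reported here. The members, the 3 gene lists and the rules were chosen with earlier results of these data known. All 5 members and every listed gene with a row could be named, with the 2 nearest rows per member that share no interval with it and have a height of at least 3 in some library. Code was tested on simulated data (Python 3.11.15, pandas 2.3.3, numpy 2.4.6).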

Additional observations from a re-analysis of the deposited data

How the results depend on the processing

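No paired analysis was possible because no genotype has more than 1 library. Unknown depth limits all ratios between libraries. Values were compared by a margin of 1.5-fold, shares by their exact 95% binomial interval and percentiles by 10 points, and of 140 values under an alternative 105 stayed within it, 27 moved and 8 changed sign.

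With libraries scaled to the same median height, the members' median log2 ratio was 0.03 for Keap1KO over wild-type, −0.04 for Keap1KO over Nrf2KO and −0.06 for wild-type over Nrf2KO. These medians are the values of Bach1, the middle member, so its changes of sign were counted again there. For wild-type over Nrf2KO the change was from 0.06 to −0.06, which is within the 1.5-fold margin. Such scaling removes a shift shared by most rows by construction. The members that changed sign were Bach1 (−0.04), Keap1 (−0.48) and Maff (−1.18) for Keap1KO over Nrf2KO, Keap1 (−0.09) and Maff (−0.44) for Keap1KO over wild-type, and Bach1 (−0.06) for wild-type over Nrf2KO. After this scaling 0 members were at least 2-fold higher in Keap1KO than in wild-type and 1 higher and 1 lower than in Nrf2KO. The share of all rows at least 2-fold lower after scaling was not computed, so the member that was lower has no background beside it. Over all rows the scaled medians were 0.14 and 0.19 for the Keap1KO comparisons, and 13.7%, 21.3% and 15.7% of rows met the 2-fold rule for Keap1KO over wild-type, Keap1KO over Nrf2KO and wild-type over Nrf2KO.

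A fold of 3 left 3 members (Keap1KO over wild-type) and 0 members (wild-type over Nrf2KO), and a fold of 1.5 put 1 member lower in wild-type than in Nrf2KO. The share of all rows at these folds was not computed, so these counts cannot be set against the table. A pseudocount of 5 left 0 members for wild-type over Nrf2KO, with 70.4%, 70.8% and 3.87% of rows in the 3 comparisons, since it shrinks ratios by construction. Genes with the same intervals counted once gave 88% and 85.4% of rows for the Keap1KO comparisons. Rows of at least the median mean height gave 80.7% for Keap1KO over Nrf2KO and 13.8% for wild-type over Nrf2KO. With an A required after TGACNNNGC, 0 member windows and 3.04% of all windows matched. Other causes of movement were not tested. Rows within 1 kb of a start as background were chosen after seeing the data.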
